A study of Mus musculus with 20 samples.

Results

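Chemokine ligands are the 39 genes, of 24848 in each table, whose symbol starts with Ccl, Cxcl, Cx3cl or Xcl followed by a digit. They were followed in 20 bulk RNA-seq libraries from the liver of C57BL/6 mice, 4 in each of 5 groups. The groups are named in the titles PMSCs (portal mesenchymal stem cells, freshly obtained portal fibroblasts), HSCs (hepatic stellate cells, the vitamin A-storing pericytes of the liver sinusoid), and the myofibroblasts that arose from each in culture, PMSC-MFs-3d, PMSC-MFs-7d and HSC-MFs-7d. They are written here without the plural s. PMSC-derived cells were profiled on days 3 and 7. The sample titles place the HSC-derived cells on day 7 and the series text on day 3, so that time is uncertain. All groups share the strain and carry no stated allele or agent, and how the cells were isolated and cultured, the age of the mice, and whether a library came from 1 animal or from a pool are not given in the sources used here. The 4 libraries of a group are therefore separate samples, not stated separate animals or cultures, and each p-value below measures the spread between these samples, which may be technical.

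Chemokines are small secreted proteins that guide leukocytes by binding G protein-coupled receptors. CXC ligands carrying an ELR motif draw neutrophils through Cxcr2, interferon-induced CXC ligands draw T and NK cells through Cxcr3, and many CC ligands draw monocytes, eosinophils or lymphocytes. Others, such as Cxcl12, are made steadily in tissue and hold stem cells, lymphocytes and vessels in place. In the liver, portal fibroblasts, stellate cells, Kupffer cells and sinusoidal endothelium can all make them, and several are induced through NF-kB or interferon signalling when tissue is disturbed.

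Levels are given as deposited TPM (a relative transcript abundance that is corrected for transcript length, so that genes can be set side by side). A ligand was counted as detected where its mean over a group's 4 libraries was 1 TPM or more. By that rule 29 ligands were detected in fresh HSC and 22 in fresh PMSC. PMSC-derived cells had 14 on each day and the HSC-derived cells 13. Of the 39, 30 were detected in at least 1 group. The 9 found in all 5 groups were Ccl2, Ccl7, Ccl25, Ccl27a, Cx3cl1, Cxcl1, Cxcl12, Cxcl14 and Cxcl16, and 13 were detected in fresh cells only. The other 9 stayed under the minimum in every group: Ccl20 reached a mean of 0.835 TPM in PMSC-MF-7d and Ccl28 0.483 TPM in PMSC, while Ccl1, Ccl21b, Ccl21c, Ccl26, Ccl27b, Cxcl15 and Cxcl17 had no count in any library. Ccl21a, Ccl21b and Ccl21c are near-identical copies, as are Ccl27a and Ccl27b, so the values of Ccl21a and Ccl27a are uncertain as to which copy they come from.

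Fresh PMSC carried the most ligand RNA. Summed over the 39 genes, the level was 20763 ± 3483 TPM in PMSC (SD, n = 4 here and below), or 2.08% of all TPM, against 7398 ± 566 TPM in HSC, or 0.740%. In culture the sum was 1423 ± 41.2 TPM in PMSC-MF-3d, 1107 ± 205 TPM in PMSC-MF-7d and 1945 ± 85.3 TPM in HSC-MF-7d. The lowest PMSC library, at 16950 TPM, was above the highest HSC library, at 8160 TPM, and every fresh library was above every cultured one. The makeup of the fresh groups differed as well. Cxcl1 was 40.4% to 45.8% of the sum in each PMSC library, whereas Cxcl12 was 48.3% to 73.2% in each HSC library. In culture Cxcl12 was 62.5% to 71.0% in HSC-MF-7d libraries and 60.6% to 78.2% in PMSC-MF-7d libraries. On day 3 of PMSC culture it was 35.6% to 57.6%.

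**Figure D1:**
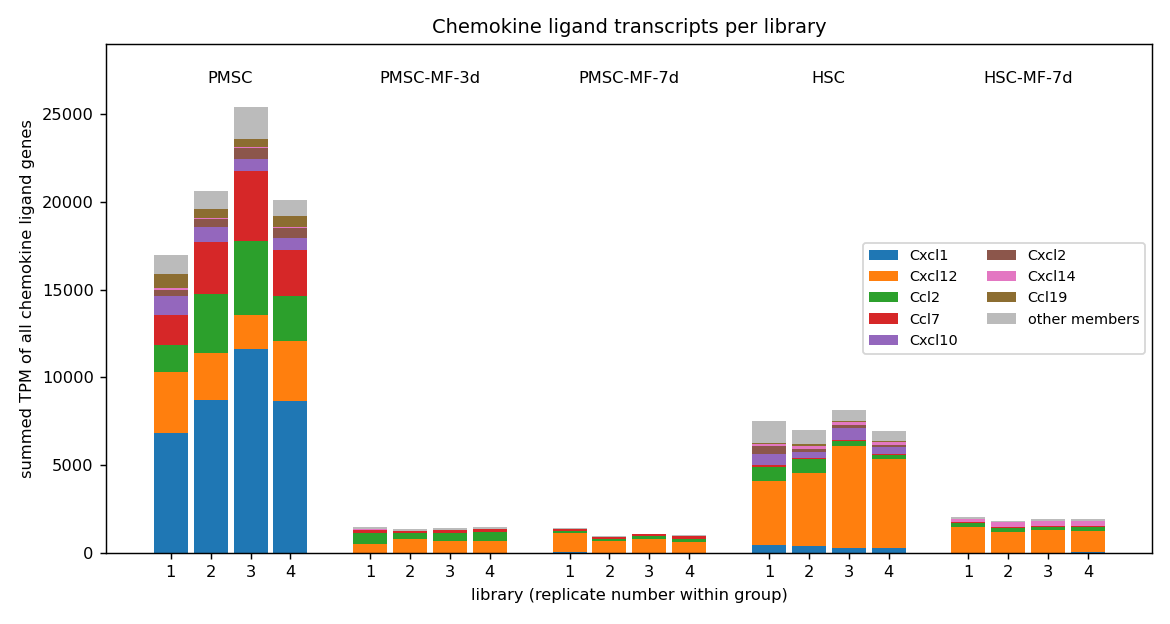
Summed TPM of the 39 chemokine ligands in each of the 20 libraries (bars, replicate number on the x axis), divided into 8 named ligands and all other members. The 4 PMSC bars reach 16950 to 25389 TPM with Cxcl1 as the largest block, the HSC bars 6931 to 8160 TPM with Cxcl12 as the largest, and the cultured bars stay at or under 2048 TPM.

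Library totals, as sums of expected counts, ranged from 11810532 to 26675589. The group labels matched their marker lists: 12 stellate cell markers summed to 16615 to 26637 TPM in HSC and 1733 to 2304 in PMSC, and 12 portal fibroblast markers to 16905 to 19605 TPM in PMSC and 515 to 835 in HSC. The HSC libraries also held RNA typical of other cells. All 12 macrophage and Kupffer cell markers were at 1 TPM or more in HSC, with sums of 11124, 5378, 5174 and 3200 TPM in replicates 1 to 4, and 12 endothelial markers summed to 6025 to 8112 TPM. In PMSC the macrophage sum was 13.1 to 29.6 TPM, with the defining markers Vsig4, Cd163 and Marco at 0 and 3 of the 12 at 1 TPM or more. The PMSC endothelial sum was 43.8 to 148 TPM, with all 12 markers at 1 TPM or more. Hepatocyte markers, 10 in number, summed to 670 to 1239 TPM in PMSC and 5242 to 20206 TPM in HSC. The 5 mesothelial markers summed to 35.9 to 68.9 TPM in PMSC and 2.29 to 11.45 TPM in HSC. In the 3 cultured groups the macrophage sum was at most 40.8 TPM and the endothelial sum at most 36.2 TPM. Macrophage and endothelial RNA may therefore add to any ligand value given for fresh HSC. In bulk RNA, fewer cells of a type and less RNA per cell cannot be told apart.

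Differences between groups were tested for the 28 ligands that passed a filter on low counts, in a fit over 14751 genes and all 20 libraries with edgeR's quasi-likelihood test; a gene is called at a Benjamini-Hochberg adjusted p under 0.05 over all of these genes, and a ± after a log2 fold change is its standard error. Of the 28, 9 passed the filter through fresh libraries only (Ccl3, Ccl4, Ccl8, Ccl19, Ccl21a, Ccl24, Cxcl9, Cxcl11 and Cxcl13) and 1, Ccl17, through cultured libraries only, so those 10 were bound to differ between fresh and cultured cells. Ccl4 passed through HSC libraries alone and Ccl8 through PMSC libraries alone, so they were also bound to differ between the fresh groups. Ccl3 and Ccl24 were over the minimum in all 4 HSC libraries and in 1 PMSC library, so their difference between the fresh groups was largely fixed by the filter too. Ccl21a was over it in 3 PMSC libraries and 1 HSC library, and Cxcl11 in 3 HSC libraries and 1 PMSC library. The same limit holds for their difference between the fresh groups. The counts below describe the list without supporting a trend. The 11 untested ligands were the 7 without counts, Ccl20, and Ccl12, Ccl22 and Xcl1, which were detected in HSC alone. Against HSC, PMSC had 13 ligands higher and 8 lower, where 33.6% of all tested genes were higher and 40.1% lower. After 3 days in culture 1 ligand was higher and 25 were lower than in PMSC (37.2% and 41.1% of all genes), and after 7 days 1 was higher and 23 lower (38.1% and 39.0%). From day 3 to day 7, 1 was higher and 6 were lower (18.6% and 17.4%). HSC-MF-7d had 3 higher and 21 lower than HSC (36.0% and 38.5%). The median log2 fold change of the list was 0.47 for PMSC against HSC (-0.10 over all genes). For PMSC-MF-7d against PMSC it was -5.48, or -4.66 with ligands at 0 counts set to the bound that 3 counts over the group allow (0.00 over all genes to 2 decimals), and for HSC-MF-7d against HSC it was -5.06, or -3.46 at the bound (-0.03). The PMSC-MF-3d and PMSC-MF-7d comparisons share the PMSC libraries, so their values are not independent of each other.

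**Figure D2:**
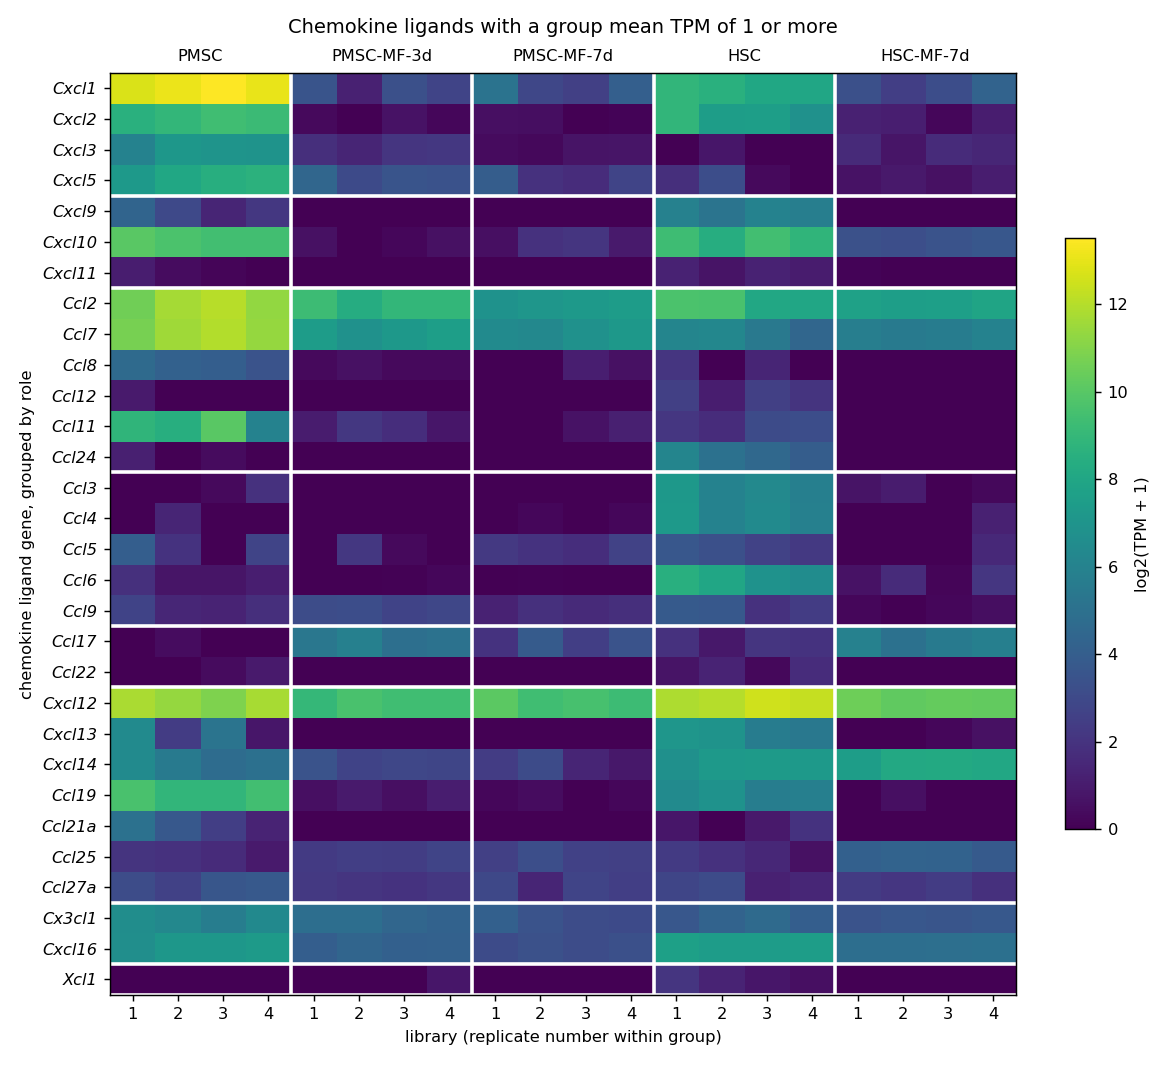
Level of the 30 detected chemokine ligands (rows, grouped by role) in each of the 20 libraries (columns, replicates 1 to 4 of each group), as log2(TPM + 1). Most rows are bright in PMSC or HSC and dark in culture, while Cxcl12, Ccl2 and Ccl7 stay visible in all 5 groups, Ccl17 is brighter in cultured cells and Cxcl14 stays bright in HSC-MF-7d.

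The neutrophil-attracting ELR ligands had their highest group means in fresh PMSC. All 4 tested members (Cxcl1, Cxcl2, Cxcl3 and Cxcl5) were higher in PMSC, and all 4 were lower in PMSC-derived cells on both days. Cxcl1, Cxcl2 and Cxcl3 lie within 1 cluster on chromosome 5 with Cxcl5 and the uncounted Cxcl15 (mm10, Cxcl1 at chr5:90891245-90893121). The 250 bases before the annotated start of these 3 genes and of Cxcl10, the interferon-inducible ligand described next, are shown. All 4 were called higher in PMSC than in HSC and lower in PMSC culture on both days, and each window held an NF-kB match. These calls do not set the 4 apart. Ccl8, Ccl19, Ccl21a, Ccl27a and Cx3cl1 had the same calls, and their windows held no NF-kB match. Ccl2, Ccl7, Ccl11 and Cxcl5 also had these calls but no window. The courses of the 4 genes shown were not the same elsewhere: in HSC culture Cxcl3 was called higher and the other 3 lower, and between days 3 and 7 Cxcl3 was called lower and Cxcl10 higher. The sequences are RefSeq's, build GRCm38.p6, the patch of mm10, each on the gene's own strand; capitals mark matches of an NF-kB consensus and, in Cxcl10 only, of an AP-1 motif (TGANTCA) and an interferon-response type motif (GAAA, 2 free bases, GAAA), all searched on both strands.
Cxcl1, chr5:90890995-90891244, plus strand: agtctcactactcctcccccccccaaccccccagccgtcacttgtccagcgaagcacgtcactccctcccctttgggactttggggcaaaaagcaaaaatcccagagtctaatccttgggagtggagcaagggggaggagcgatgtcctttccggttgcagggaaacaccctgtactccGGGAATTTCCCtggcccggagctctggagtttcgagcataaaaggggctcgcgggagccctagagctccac
Cxcl2, chr5:90903649-90903898, plus strand: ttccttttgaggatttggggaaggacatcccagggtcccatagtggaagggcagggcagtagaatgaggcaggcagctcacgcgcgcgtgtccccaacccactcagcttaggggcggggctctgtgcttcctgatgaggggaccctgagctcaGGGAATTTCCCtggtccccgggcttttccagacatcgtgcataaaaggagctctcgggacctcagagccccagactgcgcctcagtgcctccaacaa
Cxcl3, chr5:90785851-90786100, plus strand: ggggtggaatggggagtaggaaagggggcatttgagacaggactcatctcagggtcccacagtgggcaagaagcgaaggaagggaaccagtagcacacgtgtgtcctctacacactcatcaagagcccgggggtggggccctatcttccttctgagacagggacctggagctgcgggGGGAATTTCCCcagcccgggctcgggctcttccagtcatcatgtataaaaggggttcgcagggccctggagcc
Cxcl10, chr5:92348890-92349139, minus strand: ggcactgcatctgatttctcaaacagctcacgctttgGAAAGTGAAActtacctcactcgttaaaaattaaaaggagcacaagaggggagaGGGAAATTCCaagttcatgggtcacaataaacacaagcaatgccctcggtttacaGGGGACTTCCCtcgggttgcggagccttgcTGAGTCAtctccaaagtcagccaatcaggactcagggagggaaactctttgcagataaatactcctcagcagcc

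Cxcl1, Cxcl2 and Cxcl3 each carried the same pair of overlapping NF-kB matches, GGGAATTTCC and GGAATTTCCC, from 71 to 61, 97 to 87 and 73 to 63 bases before the start. In Cxcl10 one NF-kB match lay 159 to 150 bases before the start, an overlapping pair lay 104 to 94 bases before it, the AP-1 match lay at 74 to 68 and the interferon-response type match at 213 to 204. Of 33 windows available for 27 of the 39 ligands, 7 held the NF-kB consensus (21.2%), against 7.25% of 32851 windows of the same length over all genes in the table. The AP-1 motif was in 12.1% of ligand windows and 6.75% of all windows, and the interferon-response type motif in 9.09% and 2.98%. The other ligands with an NF-kB match were Ccl1, Ccl9 and Ccl20. Neighbouring members of a cluster arose by duplication and share sequence, so these windows are not independent, and a match is a description of the letters only.

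Cxcl1, the mouse counterpart of the human GRO ligands for Cxcr2, was the most abundant ligand in every PMSC library. Its level in PMSC was 6839.5, 8699.8, 11627 and 8654 TPM in replicates 1 to 4, and in HSC it was 468, 374, 263 and 255 TPM. After culture it stood at 1.32 to 10.5 TPM in PMSC-MF-3d, 4.91 to 33.8 TPM in PMSC-MF-7d and 4.64 to 18.7 TPM in HSC-MF-7d. The fresh groups did not overlap with each other or with any cultured group, and the 3 cultured groups overlapped. The log2 fold change was 5.07 ± 0.53 for PMSC against HSC (edgeR adjusted p = 5.76e-08), -9.68 ± 0.66 for PMSC-MF-7d against PMSC (adjusted p = 6.83e-11; -10.37 without PMSC-MF-7d replicate 1) and -5.21 ± 0.57 for HSC-MF-7d against HSC (adjusted p = 8.66e-08).

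Cxcl2, a second Cxcr2 ligand that macrophages also make, was closer between the fresh groups. It stood at 377, 485, 664 and 582 TPM in PMSC and at 469, 184, 189 and 114 TPM in HSC. HSC replicate 1 lay inside the PMSC range and was also the library with the highest macrophage sum. PMSC was higher by 1.49 ± 0.33 on the log2 scale (edgeR adjusted p = 0.000411). No cultured library was above 1.38 TPM, and the log2 fold change in culture was -11.45 ± 0.60 in PMSC-MF-7d and -7.97 ± 0.52 in HSC-MF-7d (-7.37 without HSC replicate 1).

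Cxcl3 and Cxcl5 were PMSC transcripts with little or nothing in HSC. Cxcl3 was at 63.3, 139, 125 and 121 TPM in PMSC and at 0, 0.76, 0 and 0 TPM in HSC, where all 5 counts came from replicate 2. Cxcl5, an ELR ligand made by epithelial and stromal cells, was at 160, 262, 355 and 410.1 TPM in PMSC and at 2.53, 8.05, 0.25 and 0 TPM in HSC. PMSC was higher by 9.39 ± 0.54 for Cxcl3 (edgeR adjusted p = 9.14e-12; 13.12 without HSC replicate 2) and by 7.08 ± 0.74 for Cxcl5 (adjusted p = 5.43e-08; 8.63 without HSC replicate 2). In PMSC culture Cxcl3 went on declining, from 1.61 to 3.58 TPM on day 3 to 0.23 to 0.69 TPM on day 7, with a change between the days called lower (log2 fold change -2.58 ± 0.51, adjusted p = 0.000538). Cxcl3 was one of 3 ligands called higher in HSC culture, at 2.09, 0.73, 2.17 and 1.69 TPM (2.84 ± 0.76, adjusted p = 0.00222), but its level there was far under that of fresh PMSC and HSC-MF-7d replicate 2 lay inside the HSC range. Cxcl5 in HSC culture had a log2 fold change of -1.92 ± 1.03 and was not called (adjusted p = 0.0987; -2.31, adjusted p = 0.0475, without HSC replicate 3).

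Among the interferon-inducible Cxcr3 ligands, Cxcl10 was abundant in both fresh populations and Cxcl9 mainly in HSC. Cxcl10 (chr5:92346638-92348889) was at 1068, 827, 673 and 675 TPM in PMSC and at 631, 342, 681 and 452 TPM in HSC. HSC replicate 3 lay inside the PMSC range, and PMSC was higher by 1.01 ± 0.26 (edgeR adjusted p = 0.00193). In PMSC-MF-3d it was at 0.54, 0, 0.18 and 0.54 TPM and in PMSC-MF-7d at 0.49, 2.78, 3.3 and 0.98 TPM, while HSC-MF-7d kept 9.23, 8.63, 10.1 and 11.9 TPM. Cxcl10 was the 1 ligand called higher on day 7 than on day 3 (2.40 ± 0.68, adjusted p = 0.00951), with 1 day 7 library inside the day 3 range. The HSC-derived cells held more than PMSC-MF-7d without overlap (log2 fold change -2.39 ± 0.40 with HSC-MF-7d as the reference, adjusted p = 6.64e-05).

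Cxcl9, which is induced by interferon gamma, was at 59.3, 35.3, 61.5 and 53.9 TPM in HSC and at 19.5, 6.87, 1.68 and 3.55 TPM in PMSC. PMSC was lower (log2 fold change -2.30 ± 0.52, edgeR adjusted p = 0.00123; -3.30 without PMSC replicate 1). It had no count in any HSC-MF-7d or PMSC-MF-3d library, which makes it at least 1583-fold lower than in HSC and at least 491-fold lower than in PMSC against a floor of 3 counts over the group's 4 libraries. The second bound rests largely on PMSC replicate 1, which held 496 of the 795 PMSC counts, and is 249.7-fold without it. Cxcl11 reached 1.14 ± 0.387 TPM in HSC and 0.395 ± 0.483 TPM in PMSC, a difference that was not called (-1.07, adjusted p = 0.269). It was called without PMSC replicate 1 (-2.32) and by limma on log2(TPM + 1). Cxcl11 passed the filter through 3 HSC libraries and 1 PMSC library, so the direction of this difference was largely fixed by the filter. Over all cultured libraries Cxcl11 had 1 count.

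The monocyte attractants Ccl2 and Ccl7, which act on Ccr2, were, with Cxcl12, the ligands next to Cxcl1 in mean level in PMSC. Ccl2 (chr11:82035577-82037452) stood at 1521, 3349.8, 4252 and 2580.3 TPM in PMSC and at 827, 789.8, 271 and 257 TPM in HSC. HSC replicates 1 and 2 were about level with each other and well above replicates 3 and 4, and no HSC library reached the PMSC range. Its log2 fold change was 2.78 ± 0.38 for PMSC against HSC (edgeR adjusted p = 1.85e-06). Ccl2 declined in steps in PMSC culture, to 614, 323, 482 and 498 TPM on day 3 and to 118, 134, 157 and 178 TPM on day 7 (-1.81 ± 0.37 between the days, adjusted p = 0.000741). In HSC culture it was at 189 to 238 TPM, and its log2 fold change against HSC was -1.50 ± 0.37 (adjusted p = 0.00104).

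Ccl7 lies next to Ccl2 (chr11:82045712-82047525) and had nearly the same PMSC level, 1693, 3010.2, 3949.8 and 2622 TPM. In HSC it was at 71.1, 75.3, 43.5 and 21.2 TPM, so PMSC was higher by 6.08 ± 0.38 on the log2 scale (edgeR adjusted p = 3.28e-11). HSC and HSC-MF-7d, at 44.5 to 63.6 TPM in the latter, overlapped (-0.14 ± 0.33, adjusted p = 0.709), whereas PMSC-MF-7d was at 78.5 to 144 TPM, lower than PMSC (-5.21 ± 0.36, adjusted p = 9.56e-11).

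**Figure D3:**
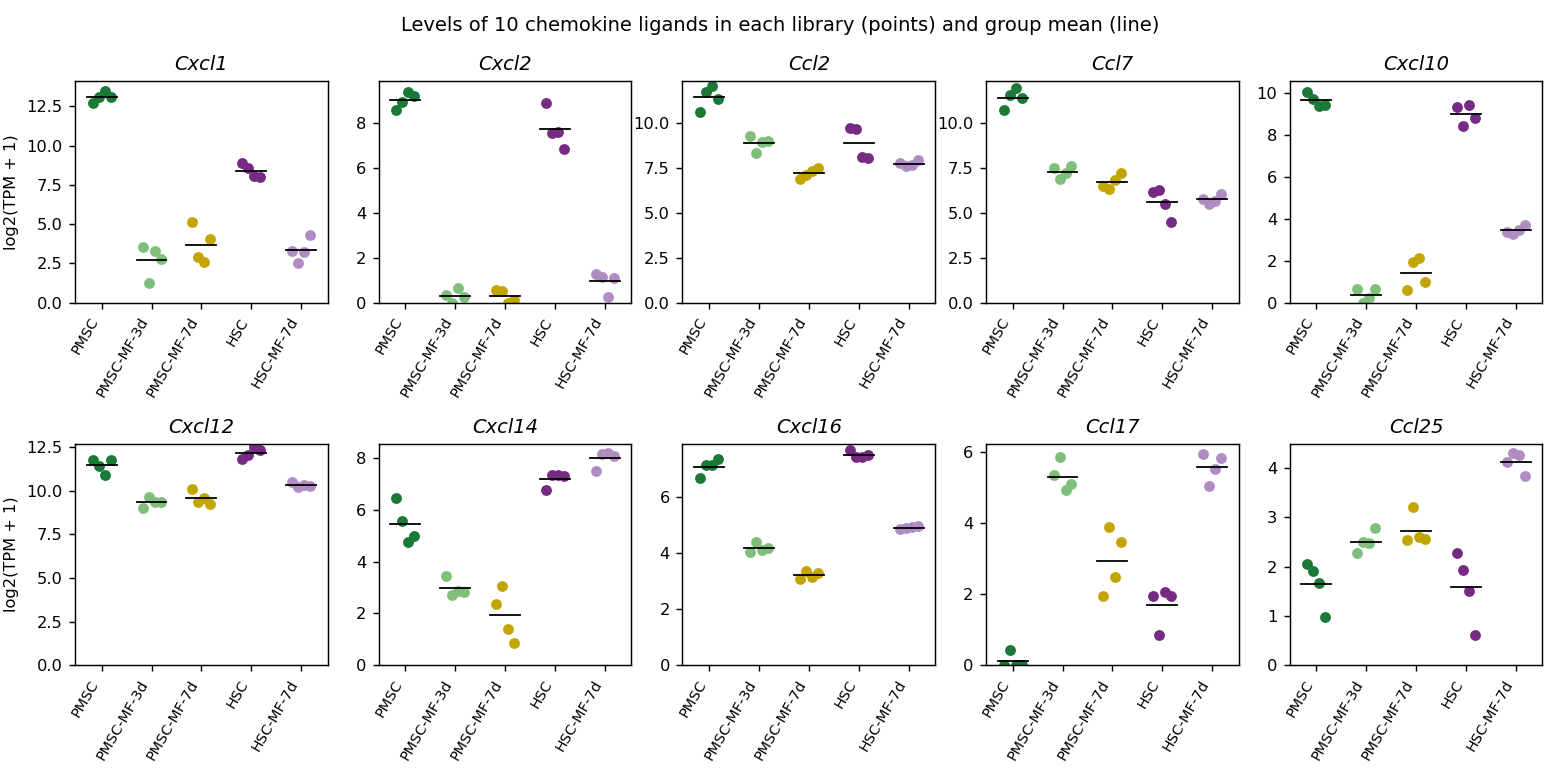
Level of 10 chemokine ligands as log2(TPM + 1) in each library (points) with the group mean (line). Cxcl1, Cxcl2 and Cxcl10 are far lower in every cultured group than in fresh cells, Cxcl12 stays above 9 units throughout, and Cxcl14, Ccl17 and Ccl25 have their highest group mean in HSC-MF-7d.

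Ccl11, the eosinophil attractant eotaxin and a ligand of Ccr3, varied widely among the PMSC libraries, at 454, 349, 1053 and 63.3 TPM. HSC libraries held 2.27 to 8.15 TPM, and PMSC was higher by 6.93 ± 0.77 (edgeR adjusted p = 4.3e-07; 6.19 without PMSC replicate 3). PMSC-MF-3d libraries held 0.74 to 3.57 TPM and PMSC-MF-7d libraries 0 to 1.29 TPM, and no count was found in HSC-MF-7d, which is at least 50.1-fold lower than HSC. Ccl8, another monocyte attractant, was at 10.04 to 24.6 TPM in PMSC and at 3.27, 0, 1.62 and 0 TPM in HSC (4.04 ± 0.85; 5.17 without HSC replicate 1), a difference given without a p-value because Ccl8 passed the filter through PMSC alone. Ccl24, the second eosinophil attractant of the list, had the opposite pattern, with 70.6, 31.5, 22.7 and 14.7 TPM in HSC and at most 1.28 TPM in a PMSC library. Its log2 fold change was -6.14 ± 0.94 (-8.36 without PMSC replicate 1 and -5.52 without HSC replicate 1). It is given without a p-value because Ccl24 passed the filter through HSC with 1 PMSC library. Ccl12, a mouse monocyte attractant that was too low to test, was at 1.11 to 4.92 TPM in HSC and had counts in 1 PMSC library only.

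Ccl3, Ccl4 and Ccl6, ligands that macrophages are known to make, were nearly confined to fresh HSC. In HSC replicates 1 to 4 the levels were 144, 62.2, 79.5 and 54.8 TPM for Ccl3. They were 158, 61.9, 87.3 and 58.3 TPM for Ccl4, and 370.1, 255, 116 and 94.6 TPM for Ccl6. Replicate 1 was the highest and replicate 4 the lowest for all 3, the same order at both ends as the macrophage marker sum (11124 and 3200 TPM) and as the Kupffer cell marker Clec4f (2312 and 676 TPM). The part of macrophage RNA in these values was not tested. No PMSC library was above 2.84 TPM for any of them. The log2 fold change for PMSC against HSC was -6.32 ± 0.80 for Ccl3 (-9.55 without PMSC replicate 4) and -7.27 ± 0.83 for Ccl4 (-11.63 without PMSC replicate 2). Both are given without a p-value, because Ccl4 passed the filter through HSC alone and Ccl3 through HSC with 1 PMSC library. For Ccl6 the log2 fold change was -6.94 ± 0.58 (edgeR adjusted p = 1.95e-09, and -7.58 without PMSC replicate 1). In HSC-MF-7d, where the macrophage sum was 17.5 to 40.8 TPM, their levels were at most 1.02 TPM for Ccl3, 1.38 TPM for Ccl4 and 3.34 TPM for Ccl6, and Ccl6, the one of the 3 that did not pass the filter through fresh libraries alone, was called lower than in HSC. The annotated spans of Ccl3 and Ccl4 overlap and no source used here gives the strand setting of the counting, so reads of the pair cannot be told apart with certainty.

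Across the 29 ligands detected in HSC, 16 were highest in replicate 1, and 11 of these were lowest in replicate 4: Ccl2, Ccl3, Ccl4, Ccl5, Ccl6, Ccl24, Ccl25, Cxcl1, Cxcl2, Cxcl13 and Xcl1. This order was not counted over all genes, so the counts describe the list only. Cxcl12, Cxcl14 and Cx3cl1 were lowest in replicate 1 and highest in replicate 3, which were also the lowest and highest libraries of the stellate marker sum (16615 and 26637 TPM). Cxcl16 was highest in replicate 1 and lowest in replicate 2 (205 and 174 TPM). The endothelial sum was lowest in replicate 2 and highest in replicate 4, and the hepatocyte sum was highest in replicate 1, at 20206 TPM, and lowest in replicate 3, at 5242 TPM.

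**Figure D4:**
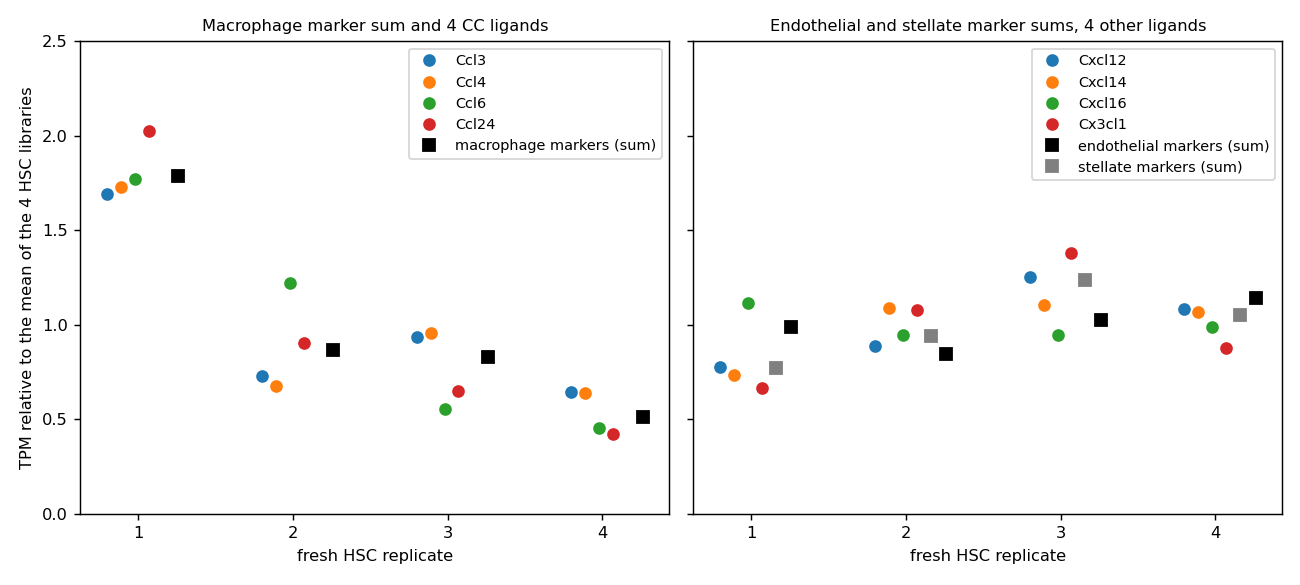
TPM of 8 ligands and 3 marker sums in the 4 fresh HSC libraries, each divided by its own mean over those libraries. On the left, Ccl3, Ccl4, Ccl6, Ccl24 and the macrophage sum are all highest in replicate 1 and lowest in replicate 4. On the right, Cxcl12, Cxcl14 and Cx3cl1 are lowest in replicate 1 together with the stellate sum, while Cxcl16 is highest there.

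Ccl5 and Ccl9 took a different course. Ccl5, a chemokine made by T cells and activated stroma, was at 15.6, 3.01, 0 and 5.83 TPM in PMSC and at 11.9, 8.67, 5.33 and 3.65 TPM in HSC, which overlapped (0.07 ± 0.96, edgeR adjusted p = 0.956). In PMSC-MF-3d Ccl5 was at 0, 3.56, 0.25 and 0 TPM and was called lower than in PMSC, a call lost without 1 PMSC library. PMSC-MF-7d held 2.45 to 5.25 TPM and was not called against PMSC (adjusted p = 0.251). In HSC-MF-7d only replicate 4 had counts, and the group was called lower than HSC (-3.93 ± 1.26, adjusted p = 0.00846, and -7.54 without that library). Ccl9, a ligand of Ccr1, was at 5.49, 1.75, 1.5 and 2.55 TPM in PMSC and at 13.0, 12.2, 2.79 and 4.24 TPM in HSC. It stood at 5.69 to 8.1 TPM on day 3 and 1.48 to 2.71 TPM on day 7 of PMSC culture, where no comparison with PMSC was called (0.91 ± 0.50, adjusted p = 0.106, and -0.86 ± 0.52, adjusted p = 0.133). The day 3 difference was called higher without PMSC replicate 1 (1.49, adjusted p = 0.0142), with library totals (1.42, adjusted p = 0.0152), with limma on log2(TPM + 1) (adjusted p = 0.00475) and with only the libraries of the groups compared (adjusted p = 0.0339). It was at most 0.44 TPM in HSC-MF-7d (-5.46 ± 0.68 against HSC, adjusted p = 5.25e-07; -6.26 without HSC-MF-7d replicate 4). PMSC-MF-7d was above HSC-MF-7d without overlap (3.47 ± 0.68, adjusted p = 0.000331; 4.28 without HSC-MF-7d replicate 4). The 12 macrophage markers summed to 20.2 to 28.5 TPM in PMSC-MF-3d and 5.91 to 10.2 TPM in PMSC-MF-7d, lower on day 7 as Ccl9 was. In both groups 2 of the 12 were at 1 TPM or more and 3, Cd163 and Adgre1 among them, were at 0. The part of macrophage RNA in the Ccl9 values was not tested.

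Ccl17, a ligand of Ccr4 that attracts regulatory and helper T cells, had higher levels in culture of both cell types. It passed the count filter through cultured libraries alone, so its changes from fresh to cultured cells are given as values without a p. Ccl17 (chr8:94809380-94812038) had 1 count in all 4 PMSC libraries together, in replicate 2, and stood at 39.8, 57.0, 29.2 and 33.1 TPM in PMSC-MF-3d. On day 7 it was at 2.87, 13.7, 4.61 and 10.04 TPM, under every day 3 library (-2.44 ± 0.44, edgeR adjusted p = 0.000225). Relative to all counts of the group, PMSC-MF-3d had 322 times the PMSC value and PMSC-MF-7d 58.3 times, with exact 95% counting intervals that start at 57.5 and 10.3; these cover counting error only. HSC libraries held 2.83, 0.8, 3.21 and 2.89 TPM and HSC-MF-7d libraries 60.3, 31.7, 44.9 and 55.5 TPM, without overlap (log2 fold change 4.18 ± 0.51). HSC-MF-7d was above PMSC-MF-7d (log2 fold change -2.62 ± 0.44 with HSC-MF-7d as the reference, adjusted p = 6.31e-05) and overlapped PMSC-MF-3d (adjusted p = 0.736). The 6 markers of dendritic cells, a cell type known to make Ccl17, summed to 43.3 to 57.8 TPM in fresh HSC and to 14.4 to 18.1 TPM in HSC-MF-7d. Their sum was 11.03 to 12.3 TPM on day 3 and 5.16 to 7.59 TPM on day 7 of PMSC culture. In HSC 4 of the 6 were at 1 TPM or more and 0 were without signal. In each cultured group 1 was at 1 TPM or more and 3 were at 0, so these sums rest on different markers. The part of dendritic cell RNA in the Ccl17 values was not tested. Ccl22, the neighbour of Ccl17 and the other Ccr4 ligand, had no count in any cultured library and 1.17 ± 0.924 TPM in HSC.

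Cxcl12, the ligand of Cxcr4 and of the atypical receptor Ackr3 and a retention signal for blood stem cells, had the highest mean of the ligands in each cultured group, although Ccl2 was above it in PMSC-MF-3d replicate 1. Cxcl12 (chr6:117168535-117181368) stood at 3623, 4157, 5850.1 and 5072 TPM in HSC and at 3488, 2681, 1920.01 and 3406 TPM in PMSC. The groups did not overlap, and PMSC was lower (log2 fold change -0.66 ± 0.19, edgeR adjusted p = 0.00437). Cultured cells kept 517, 793, 659 and 663 TPM in PMSC-MF-3d, 1095, 654, 772 and 606 TPM in PMSC-MF-7d and 1455, 1204, 1279 and 1217 TPM in HSC-MF-7d. The change in culture was nearly the same size from both starting cells, -2.23 ± 0.20 in PMSC-MF-7d and -2.11 ± 0.20 in HSC-MF-7d, with a difference of -0.12 ± 0.27 that was not called (adjusted p = 0.743). HSC-MF-7d stayed above PMSC-MF-7d without overlap (-0.78 ± 0.19, adjusted p = 0.00241).

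Cxcl14, a chemokine of epithelia and fibroblasts whose receptor use is not settled, was lower in PMSC than in HSC both before and after culture. Cxcl14 (chr13:56288643-56296811) was at 107, 159.6, 162 and 156 TPM in HSC and at 182, 287, 290.5 and 271 TPM in HSC-MF-7d. Every HSC-MF-7d library was above every HSC library, but the rise of 0.70 ± 0.39 on the log2 scale was not called (edgeR adjusted p = 0.108); with only the libraries of these 2 groups in the fit it was (0.73, adjusted p = 0.0024). PMSC held 87.0, 45.9, 26.3 and 31.2 TPM, under every HSC library (log2 fold change -1.22 ± 0.39, adjusted p = 0.00921). PMSC-MF-3d held 10, 5.61, 6.31 and 6.19 TPM and PMSC-MF-7d held 4.21, 7.41, 1.65 and 0.83 TPM. PMSC-MF-7d was lower than PMSC (log2 fold change -4.27 ± 0.47, adjusted p = 9.89e-08; -4.91 without PMSC-MF-7d replicate 2). Between the myofibroblasts, PMSC-MF-7d against HSC-MF-7d gave -6.19 ± 0.50 (adjusted p = 6.88e-09; -6.85 without PMSC-MF-7d replicate 2), with no overlap. Cxcl14 made up 8.91% to 15.6% of the summed ligand TPM in HSC-MF-7d.

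The lymphoid-tissue ligands were fresh-cell transcripts. Ccl19, a Ccr7 ligand that draws dendritic cells and naive T cells, was at 798, 478, 477 and 672 TPM in PMSC and at 85.8, 118, 51.2 and 55.5 TPM in HSC (3.30 ± 0.26, edgeR adjusted p = 9.38e-10), and no cultured library was above 1.11 TPM. Ccl21a, the second Ccr7 ligand, was at 31.9, 12.02, 4.61 and 1.56 TPM in PMSC and at 0 to 2.9 TPM in HSC, with an overlap. Its log2 fold change was 3.89 ± 1.10 (2.81 without PMSC replicate 1 and 4.81 without HSC replicate 4). It is given without a p-value because Ccl21a passed the filter through 3 PMSC libraries and 1 HSC library. The Ccl21a call was lost with the replicate number as a block (3.59), and the gene had no count in culture. Cxcl13, the B cell attractant acting on Cxcr5, varied over a wide range in PMSC, at 87.4, 4.3, 36.3 and 0.75 TPM, and stood at 41.6 to 135 TPM in HSC (-1.05 ± 0.89, adjusted p = 0.299). Without PMSC replicate 1 the Cxcl13 difference was -2.35 and called (edgeR adjusted p = 0.0334), as it was by limma on log2(TPM + 1) (adjusted p = 0.00598). Cxcl13 had 5 counts in HSC-MF-7d and none in PMSC-derived cells, at least 643-fold under PMSC on day 7 and at least 211-fold without PMSC replicate 1, which held 781 of its 1032 PMSC counts.

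Ccl25, the Ccr9 ligand known from thymus and small intestine, was low in fresh cells and higher after culture. Ccl25 (chr8:4325205-4360020) was at 3.85, 2.8, 1.85 and 0.52 TPM in HSC and at 16.4, 18.8, 18.1 and 13.3 TPM in HSC-MF-7d (2.72 ± 0.44, edgeR adjusted p = 1.3e-05). PMSC held 0.97 to 3.15 TPM and PMSC-MF-7d 4.85, 8.31, 5.04 and 4.87 TPM, which did not overlap but were not called (0.86 ± 0.43, adjusted p = 0.0737). Scaling by library totals in place of TMM, edgeR's normalization, gives 1.33 for that change (adjusted p = 0.00716), and leaving out PMSC replicate 1 gives 1.08 (adjusted p = 0.0462). Ccl27a, a ligand of Ccr10 in skin, was at 5.2 to 12.5 TPM in PMSC and at 1.36 to 7.56 TPM in HSC (1.92 ± 0.55, adjusted p = 0.00415). It was lower in PMSC-MF-7d (log2 fold change -1.34 ± 0.52, adjusted p = 0.0253), a call lost under library totals (adjusted p = 0.125) and without any of PMSC replicates 3 or 4 or PMSC-MF-7d replicates 2 or 4.

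Cx3cl1 and Cxcl16 are membrane-anchored chemokines that are shed by Adam10 and Adam17. Cx3cl1, or fractalkine, was at 98.7, 78.2, 52.3 and 85.1 TPM in PMSC and at 11.5, 18.7, 24.01 and 15.2 TPM in HSC (2.56 ± 0.25, edgeR adjusted p = 2.52e-08). It declined to 18.1 to 28.4 TPM on day 3 and 7.33 to 16.5 TPM on day 7 of PMSC culture, and was at 10.04 to 12 TPM in HSC-MF-7d (-0.76 ± 0.25 against HSC, adjusted p = 0.0106; adjusted p = 0.0611 without HSC replicate 3). Cxcl16, the ligand of Cxcr6, was at 101, 141, 140.3 and 166 TPM in PMSC and at 205, 174, 174 and 182 TPM in HSC. Its TPM did not overlap between the fresh groups, yet its log2 fold change was -0.03 ± 0.12 (adjusted p = 0.836), because TMM scaling moves all PMSC values up against HSC: with library totals alone it was -0.37 (adjusted p = 0.00799), and the median of all genes moved from -0.10 to -0.44. Cxcl16 was lower in PMSC-MF-7d, at 7.39 to 9.2 TPM (-4.54 ± 0.14, adjusted p = 6.76e-16), and in HSC-MF-7d, at 28.6 to 30.2 TPM (-2.80 ± 0.13, adjusted p = 1.76e-13). Adam10 was at 21.5 ± 2.26 TPM in PMSC and 109 ± 9.35 TPM in PMSC-MF-7d, and was not called in HSC culture (0.01 ± 0.09, edgeR adjusted p = 0.941). Adam17 was not called in PMSC-MF-7d against PMSC (-0.08 ± 0.15, adjusted p = 0.618). In HSC culture it was called lower (-0.47 ± 0.15, adjusted p = 0.00674). Xcl1, an NK and T cell product too low to test, was at 3.2, 1.57, 0.79 and 0.48 TPM in HSC, where 9 T and NK cell markers summed to 14.3, 3.78, 6.09 and 6.49 TPM.

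Set side by side, the culture changes on day 7 differed between the 2 starting cells for 12 ligands. The 2 comparisons share no library. Of the 23 ligands called lower in PMSC-MF-7d against PMSC and the 21 called lower in HSC-MF-7d against HSC, 18 were in both lists, which is 78.3% of the first and 85.7% of the second. Over all tested genes the same shares were 61.8% and 62.6%. Of the 18, 8 had passed the filter through fresh libraries alone, so that their direction was fixed by the filter. Among the other ligands 10 were in both lists, 66.7% of 15 and 83.3% of 12. Ccl17, bound to differ, was higher in both, and Cxcl3 was called lower in PMSC culture and higher in HSC culture. Ccl7, Ccl27a, Cxcl5 and Cxcl14 were called lower in PMSC culture and not called in HSC culture. Tested directly as an interaction, the change in PMSC culture was below that in HSC culture for 11 ligands and above it for 1 (29.2% and 31.4% of all genes). The 11 were Cxcl3, Ccl7, Cxcl14, Cxcl1, Cxcl5, Cxcl2, Cxcl10, Ccl2, Cx3cl1, Ccl25 and Cxcl16, with differences on the log2 scale from -11.13 ± 0.84 for Cxcl3 (-14.85 without HSC replicate 2) to -1.73 ± 0.17 for Cxcl16. For Cxcl5 the difference, -4.07 ± 1.43, lost its call without HSC-MF-7d replicate 2 or 4 (edgeR adjusted p = 0.065 and 0.0822). The one ligand with a positive difference was Ccl9 (4.60 ± 0.86, adjusted p = 0.000119). Where the HSC libraries hold RNA of other cells, a change in HSC culture includes that RNA.

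**Figure D5:**
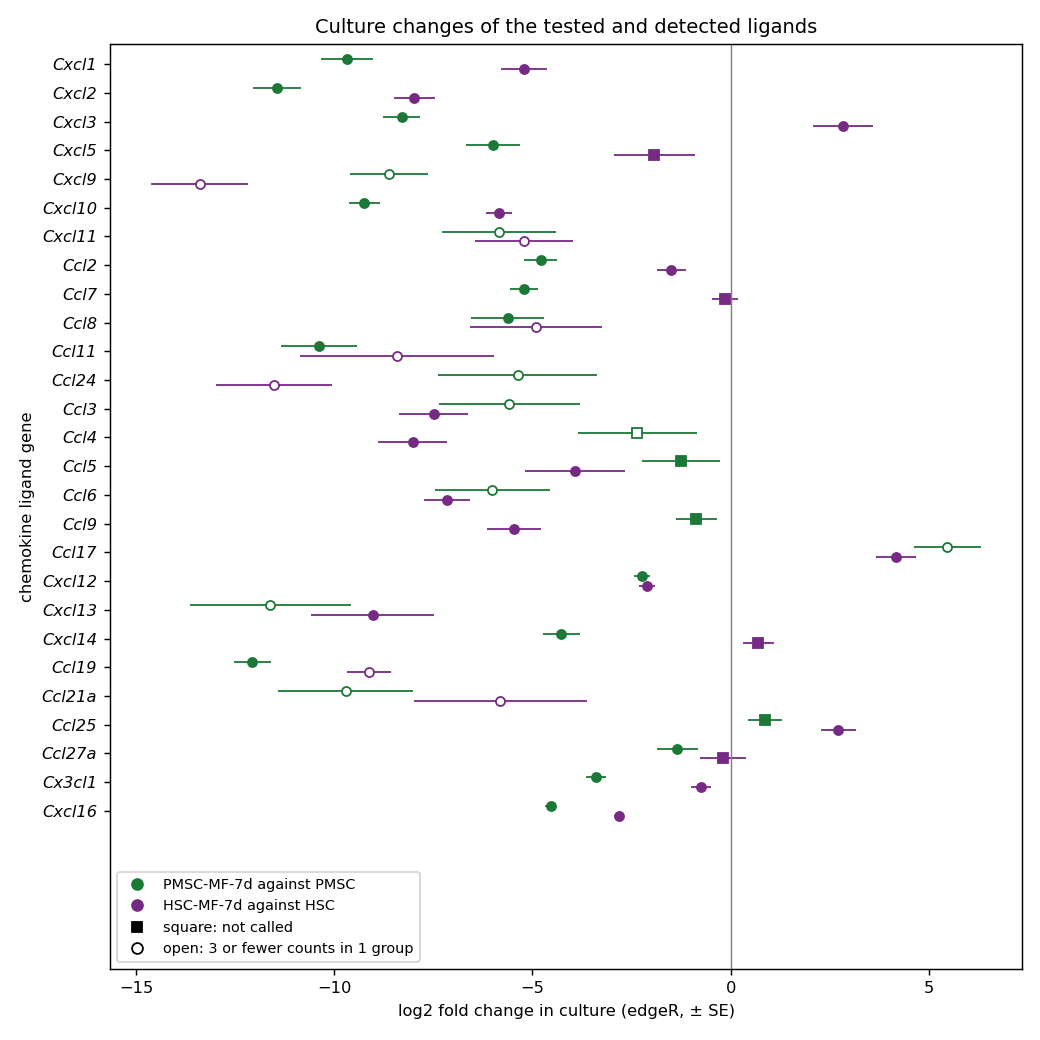
Log2 fold change, with its standard error, of the 27 tested and detected ligands in PMSC-MF-7d against PMSC (green) and HSC-MF-7d against HSC (purple); squares were not called, and open symbols had 3 or fewer counts in 1 group, so that their fitted value is no bound. Most points lie left of 0; Ccl17 lies right of 0 in both cultures, Cxcl3 and Ccl25 are called right of 0 in HSC culture only, and the 2 Cxcl12 points nearly coincide.

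Between the myofibroblasts of the 2 origins, PMSC-MF-7d had 3 ligands called higher (Ccl7, Ccl9 and Cxcl5) and 8 lower than HSC-MF-7d (23.9% and 23.1% of all genes), and the day 3 cells had 5 higher and 6 lower (27.2% and 27.4%). Ccl7 was 1.01 ± 0.32 higher on the log2 scale in PMSC-MF-7d (edgeR adjusted p = 0.0147), a call lost without HSC-MF-7d replicate 2 or PMSC-MF-7d replicate 4 (adjusted p = 0.0579 and 0.0662). Cxcl5 was 3.0035 ± 0.90 higher (adjusted p = 0.00983), at 14.9, 2.78, 2.32 and 5.81 TPM against 0.55 to 1.12 TPM, and lost its call without PMSC-MF-7d replicate 1 (2.23, adjusted p = 0.0681). The 8 lower ligands were Cxcl14, Ccl6, Ccl17, Cxcl10, Cxcl16, Cxcl3, Ccl25 and Cxcl12, and Ccl6 had 1 count in PMSC-MF-7d.

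Of 19 chemokine receptor genes on a list, 7 passed the count filter and 6 of them were lower in PMSC than in HSC, none higher, beside 40.1% and 33.6% of all tested genes. Of the 7, 3 passed the filter through fresh libraries alone, 2 of them through HSC alone, so the counts describe the list only. In HSC culture 5 were lower (38.5% of all genes), and in PMSC-MF-7d 3 were lower and 1, Cxcr6, was higher than in PMSC (39.0% and 38.1%). Cxcr4, the signalling receptor of Cxcl12, was at 15.3 ± 13.8 TPM in HSC and 3.48 ± 0.674 TPM in PMSC (-1.78 ± 0.57, edgeR adjusted p = 0.00901; adjusted p = 0.148 without HSC replicate 1). In culture Cxcr4 means were at most 1.27 TPM.

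All 5 genes on the list of atypical receptors were called lower in each cultured group than in its fresh cells (38.5% to 41.1% of all genes were lower in these comparisons). Of these, Ackr1, Ackr2, Ackr3 and Ackr4 bind chemokines without classical signalling. Ackr3, which takes up Cxcl12, was mainly a transcript of PMSC and the cells derived from them. It was at 475 ± 104 TPM in PMSC and 3.39 ± 1.27 TPM in HSC (7.52 ± 0.37, edgeR adjusted p = 1.16e-12). It was at 18.2 ± 1.5 TPM on day 3 and 102 ± 43 TPM on day 7 of PMSC culture, a rise between the days of 2.37 ± 0.29 (adjusted p = 3.86e-06), and at 1.57 ± 0.778 TPM in HSC-MF-7d. Its lower level in HSC-MF-7d than in HSC (-1.21 ± 0.43, adjusted p = 0.0149) was not called without HSC replicate 2 or HSC-MF-7d replicate 2 or 3 (adjusted p = 0.0951, 0.0716 and 0.0518). Ccrl2, which presents chemerin and is induced with inflammation, went from 189 ± 34.7 TPM in PMSC to 0.295 ± 0.145 TPM in PMSC-MF-7d (-9.94 ± 0.37) and from 140 ± 40.7 TPM in HSC to 4.33 ± 1.41 TPM in HSC-MF-7d (-5.07 ± 0.28). Ackr4, a scavenger of Ccl19, Ccl21 and Ccl25, was at 75.3 ± 37.1 TPM in PMSC and 27.9 ± 7.63 TPM in HSC. Of the ligand-cleaving proteases, Mmp2 was at 932 ± 109 TPM in PMSC and 75.1 ± 13 TPM in HSC (4.02 ± 0.19, adjusted p = 7.25e-13), and Dpp4, which trims Cxcl10 and Cxcl12, was at 2.03 ± 1.28 TPM in PMSC and 189 ± 34.1 TPM in HSC (-6.13 ± 0.40, adjusted p = 5.42e-11). Pf4, a platelet CXC chemokine outside the symbol rule, was at 44.7 ± 9.33 TPM in HSC, 28.2 ± 3.46 TPM in HSC-MF-7d, 8.23 ± 2 TPM in PMSC and 0.22 ± 0.302 TPM in PMSC-MF-7d.

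Genes of the NF-kB system, which induces Cxcl1, Cxcl2 and Ccl2 among others, were largely higher in PMSC than in HSC and lower in culture. Of 15 subunits, inhibitors and kinases, 12 were higher and 2 lower in PMSC than in HSC, beside 33.6% and 40.1% of all tested genes. In each of the 3 comparisons of cultured with fresh cells 12 were lower and 2, the kinase subunits Chuk and Ikbkg, were higher, where 38.5% to 41.1% of all genes were lower and 36.0% to 38.1% higher. Nfkbia, the feedback inhibitor that NF-kB itself induces, was at 1376 ± 111 TPM in PMSC and 588 ± 128 TPM in HSC. After culture it was at 65.3 ± 3.94 TPM in HSC-MF-7d, and PMSC-derived cells held 49.1 ± 4.58 TPM on day 3 and 41.0 ± 3.17 TPM on day 7. Its log2 fold change was -5.55 ± 0.14 in PMSC-MF-7d (edgeR adjusted p = 9.45e-17) and -3.29 ± 0.13 in HSC-MF-7d (adjusted p = 2.91e-14). Nfkb1 was at 452 ± 113 TPM in PMSC and 79.4 ± 3.97 TPM in HSC, and the feedback genes Nfkbiz and Tnfaip3 were at 483 ± 63.4 and 271 ± 56.4 TPM in PMSC and at 261 ± 68.4 and 126 ± 76.6 TPM in HSC.

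Of 8 interferon-responsive factors, 2 were higher and 4 lower in PMSC than in HSC, near the 33.6% and 40.1% of all tested genes. In PMSC-derived cells 7 were lower and 1 (Irf3) higher on either day (41.1% and 39.0% of all genes were lower on days 3 and 7), and all 8 were lower in HSC-MF-7d (38.5%). Irf1, a factor induced by interferon gamma, was at 539.6 ± 102 TPM in PMSC and 406 ± 105 TPM in HSC, and at 13.0 ± 0.417, 9.87 ± 2.17 and 14.7 ± 1.88 TPM in PMSC-MF-3d, PMSC-MF-7d and HSC-MF-7d. Irf7, another interferon-responsive factor, was at 267 ± 99 TPM in HSC against 78.3 ± 10.6 TPM in PMSC. It was called lower in PMSC, whereas Irf1 and Irf9 were the 2 called higher there. Of 15 inflammatory cytokine and Toll-like receptors and adaptors, 7 were higher and 5 lower in PMSC than in HSC (33.6% and 40.1% of all genes). In PMSC-MF-7d 2 were higher and 11 lower than in PMSC (38.1% and 39.0%), and HSC-MF-7d had 4 higher and 10 lower than HSC (36.0% and 38.5%). Il1r1 was at 203 ± 33.7 TPM in PMSC and 94.0 ± 11.3 TPM in HSC, Myd88 at 282 ± 36 and 89.8 ± 6.92 TPM. Tnfrsf1a, at 350 ± 26.4 and 381 ± 39.1 TPM, was called 0.26 ± 0.10 higher in PMSC (edgeR adjusted p = 0.0256) and changed sign with library totals (-0.08, adjusted p = 0.441).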

How the data were processed

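Bulk RNA-seq of 20 mouse liver cell libraries in 5 title groups of 4 was used. Per the labels' protocols, RNA came from RNeasy Micro extraction and the libraries from a stranded KAPA mRNA-Seq kit. Reads were handled with FastQC, Trimmomatic, STAR 2.5.3a and RSEM 1.2.28 on mm10, per the submitters' processing notes. The deposited tables hold, per the file headers, RSEM expected counts (estimated counts, fractional for 0.640% to 0.873% of genes), TPM and FPKM per gene. The TPM values are as the authors deposited them, relative to each library's total, and were used for levels; the deposited FPKM were not used.

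Expected counts were rounded to whole numbers; no ligand had a fractional count. The main test was edgeR 4.0.16 (quasi-likelihood, robust, TMM, filterByExpr, R 4.3.3) over all 20 libraries with group as the only term, Benjamini-Hochberg adjustment over 14751 genes, called under 0.05. Standard errors are the absolute log2 fold change divided by the square root of F. The difference of culture changes is an interaction contrast. Alternatives were DESeq2 1.42.0, limma 3.58.1 on log2(TPM + 1), library totals without TMM, no filter, only the groups compared, a replicate block, and leaving out each library. The test script was tested on simulated data with known changes. The floor for a group at 0 is 3 counts over its 4 libraries.

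Members follow the symbol rule; each with a mean of 1 TPM or more in a group is named, and of the pathway lists up to 4 called genes with the highest mean; some of these are not reported here. The members, lists and tests were chosen with earlier results of these data known. All 39 symbols and their transcript accessions matched RefSeq GRCm38.p6, from which coordinates and promoter windows were read; 27 ligands had a window.

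Replicates of each group differed beyond sampling noise. Same-numbered libraries of different groups mostly did not deviate together (correlation over 0.1 in 3 of 40 pairs). Between days 3 and 7 of PMSC culture, the same-number correlations were 0.122, 0.100, 0.00243 and 0.0885 for replicates 1 to 4. No other pairing of libraries from these 2 groups was above 0.0347, so they may be matched by number. The labels do not say that a number is shared between groups, so libraries were not paired. The tests of day 7 against day 3 therefore take no account of a possible match.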

Additional observations from a re-analysis of the deposited data

Results flagged for a closer look

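In 4 of 92 sets of 4 libraries examined (a ligand within a group), 1 library stood apart by Dixon's test at the 95% level, where chance alone gives about 1 in 20. Ccl17 in HSC replicate 2 was low, at 0.8 TPM, against 2.83 to 3.21 TPM in the other HSC libraries. Ccl25 in PMSC-MF-7d replicate 2 was high, at 8.31 TPM, against 4.85 to 5.04 TPM. Cxcl14 in PMSC-MF-3d replicate 1 was high, at 10 TPM, against 5.61 to 6.31 TPM. Cxcl14 in HSC replicate 1 was low, at 107.48 TPM, against 156 to 162 TPM; this is also the HSC library with the lowest stellate marker sum, 16615 TPM.

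For 12 ligands the change in PMSC culture (day 7 against PMSC) differed from the change in HSC culture by the interaction test of edgeR. The differences in log2 fold change, PMSC culture minus HSC culture, were -11.133 for Cxcl3, -5.071 for Ccl7, -4.967 for Cxcl14 and -4.475 for Cxcl1. They were -4.074 for Cxcl5, -3.474 for Cxcl2, -3.397 for Cxcl10, -3.288 for Ccl2, -2.639 for Cx3cl1, -1.86 for Ccl25 and -1.733 for Cxcl16. Ccl9 had the one positive difference, 4.603. The differences of Cxcl3, Cxcl14, Cxcl1 and Ccl9 moved by more than 1.5 times without a single library, to -14.85 without HSC replicate 2, -5.63 and -5.17 without PMSC-MF-7d replicates 2 and 1, and 5.42 without HSC-MF-7d replicate 4, and stayed called. The day of the HSC-derived cells is uncertain, and the fresh HSC libraries hold macrophage and endothelial RNA; how far either touches these differences was not tested.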

How the results depend on the processing

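Of 208 named changes under all alternatives, 2908 of 2993 values kept direction and side of the threshold, 83 lost the call and 2 changed sign, both for Tnfrsf1a in PMSC against HSC (0.26; -0.080 with library totals, -0.116 with limma on log2(TPM + 1)); the cause was not tested. Scaling by library totals moved the median of all genes from -0.10 to -0.44 for PMSC against HSC, from -0.07 to 0.41 on day 3 and from 0.00 to 0.43 on day 7 of PMSC culture, and from 0.10 to 0.44 for the difference of culture changes; among called genes the higher share went from 45.6% to 33.3%, 47.5% to 61.7%, 49.4% to 63.5% and 51.8% to 66.0%. Ligands called higher on day 3 against PMSC (1) were 3 with library totals, 3 with limma and 2 with only the groups compared, and 1 to 2 without 1 library. On day 7 against PMSC (1) they were 2 with library totals, 2 with limma, 2 without the filter, 0 with only the groups compared, where Ccl17 failed the filter, and 1 to 2 without 1 library. On day 7 against day 3 (1) they were 0 with only the groups compared, where Cxcl10 failed the filter, and 1 to 2 without 1 library. For the difference (1) limma called 8 higher and 15 lower, and leaving out 1 library gave 1 to 3 higher.

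Taken over all pairs of groups, replicate numbers did not pair the libraries: 19 of 80 best matches were with the own number. The exception was PMSC-MF-3d with PMSC-MF-7d, where replicates 1, 2 and 4 correlated most with their own number and may be matched. With the replicate block, 12 ligands were higher and 8 lower in PMSC against HSC. In culture 24 were lower on day 3 against PMSC and 20 lower in HSC-MF-7d against HSC. Ccl21a lost its calls in PMSC against HSC and in HSC culture, and Ccl4 its call on day 3 against PMSC. No other named change lost its call. Calls of Ccl3, Ccl4, Ccl5 and Ccl24 in PMSC culture rest on few counts, and each was lost without 1 PMSC library.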
